A study of Mus musculus with 4 samples.

Results

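The genes described are the replication-dependent histone genes of the mouse, whose symbols on the array begin with Hist1h to Hist4h. There were 28 of them among the 30145 genes that have at least 1 array row naming no other gene, and the brightest such row stood for each gene. They comprised 5 linker histone H1 genes, 9 H2A genes, 9 H2B genes, 3 H3 genes and 2 H4 genes. In the clusters by which they are named, 22 were Hist1 genes (chromosome 13), 5 were Hist2 genes (chromosome 3) and 1 was a Hist3 gene (chromosome 11). RefSeq lists 26 of them as protein-coding, Hist1h2aj as a pseudogene and Hist3h2bb-ps as a transcribed pseudogene.

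RNA came from primary keratinocytes of C57BL/6J mice aged 1 week that were either wild type or deficient in the glucose transporter Glut1 in keratinocytes only, with 4 mice per genotype. Which promoter drove the deletion is not stated in the labels used here. Cells of both genotypes grew in keratinocyte medium containing CaCl2 (0.05 mM), EGF (5 ng/ml), insulin (0.5 ug/ml), hydrocortisone (0.05 ug/ml), pituitary extract (7.5 ug/ml) and penicillin with streptomycin. After 3 days they were reseeded at 2000000 cells on collagen and collected the next day. Each array held the pooled RNA of 2 plates of a genotype chosen at random, which gave 2 arrays per genotype. P-values therefore measure the spread between these pools, and so few arrays limit their precision.

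Histones package DNA into nucleosomes, each with a core of H2A, H2B, H3 and H4, and H1 binds the linker between them. Replication-dependent histone genes are intronless in the main, lie in clusters of many near-identical copies and are transcribed chiefly in S phase, when new DNA must be packaged. Their messages typically end in a stem-loop bound by Slbp rather than in a poly(A) tail. Some of these genes are also known to give polyadenylated messages in cells that have left the cycle. Which of the messages measured here were polyadenylated was not examined. In epidermis, dividing basal keratinocytes are the main cells in S phase.

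Signals are log2 values per array row, on which a difference of 1 is 2-fold. Slc2a1, which encodes Glut1, was 13.26 and 13.40 in wild type and 12.09 and 12.01 in Glut1-deficient cells, a fall by 1.28 (SE 0.10, limma adjusted p = 0.00754). Whether this row lies in the deleted part of the gene is not stated in the labels. Over rows with 1 symbol, replicate arrays correlated at 0.998 (wild type) and 0.997 (Glut1-deficient), and arrays of different genotype at 0.989 to 0.992. The 95th percentile of 23 background control rows, from 4.36 to 4.87 across arrays, served as a floor. The 12 keratinocyte markers all exceeded it on both arrays of a genotype, with Krt5 from 17.98 to 18.69, while all 5 T cell and all 5 mast cell markers lay at or below it on every array. In 9 of the 12 both Glut1-deficient arrays were the lower ones, and in 3 both were the higher ones, against 25.8% and 23.8% of all rows. The list median was -0.35. Col17a1 fell by 0.86 and Lamb3 by 0.80 (limma adjusted p = 0.0181 and 0.0208), 2 of 12 against 3.11% of all rows. The summed linear signal of the 12 markers was 1010692 and 1088831 in wild type and 948209 and 799435 in Glut1-deficient cells. The summed linear signal of 8 melanocyte markers was 1527 and 1086 in wild type and 5361 and 2282 in Glut1-deficient cells. That of 7 fibroblast markers, with Col3a1 and Lum at or below the floor, was 149 on each wild-type array against 201 and 233. Both Glut1-deficient arrays were the higher ones in 7 of 8 melanocyte and all 7 fibroblast markers, against 23.8% of all rows. In each list 1 marker passed, against 4.11% of all rows called higher. Pmel rose by 1.04 (limma adjusted p = 0.0341). Dcn, at or below the floor in wild type, was at least 2.14-fold higher (limma adjusted p = 0.0250 for the measured difference). The summed signal of 7 macrophage or dendritic cell markers was 474 and 528 against 773 and 1325, with Adgre1, Csf1r, Itgam, Cd207 and Lyz2 at or below the floor. Its rise came from Cd68, which rose by 1.95, while Cd14 fell by 1.38 (limma adjusted p = 0.0268 and 0.00880) and the list median was -0.04. That of 6 endothelial markers was 145 and 161 against 1206 and 804, with the defining markers Cdh5, Tek, Cldn5 and Vwf at or below the floor. Kdr alone carried it, with 6.11 and 6.34 against 10.14 and 9.51, and Pecam1, above the floor on only 1 array, stood at -0.32. The part of these marker differences in the histone values was not tested.

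Most histone genes had lower signal in Glut1-deficient keratinocytes, and a single one had clearly higher signal. By limma with Benjamini-Hochberg adjustment over all rows with 1 symbol, 10 of the 28 genes fell, 1 rose and 17 did not pass at an adjusted p under 0.05. Over all 30604 such rows 3.11% fell and 4.11% rose. Among genes above the floor on both arrays of a genotype, as 25 of the 28 were, 6.13% fell. The falls were Hist1h1a, Hist1h1b, Hist1h2ah, Hist1h2ak, Hist1h2ap, Hist1h2ba, Hist1h2bk, Hist1h2bm, Hist1h3g and Hist2h2bb, and the rise was Hist1h1c. The difference was below 0 in 23 of the 28 genes (82.1%), against 52.5% of all genes. In 21 of them every Glut1-deficient array lay below every wild-type array, which was so for 25.8% of all rows, and in 1 the order was the opposite, as in 23.8% of all rows. The median log2 difference was -0.48, against -0.01 over all genes, and the range ran from -1.70 (Hist1h1a) to 1.64 (Hist1h1c). Fewer cells making histone message and less histone message per cell cannot be told apart in these pools.

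**Figure D1:**
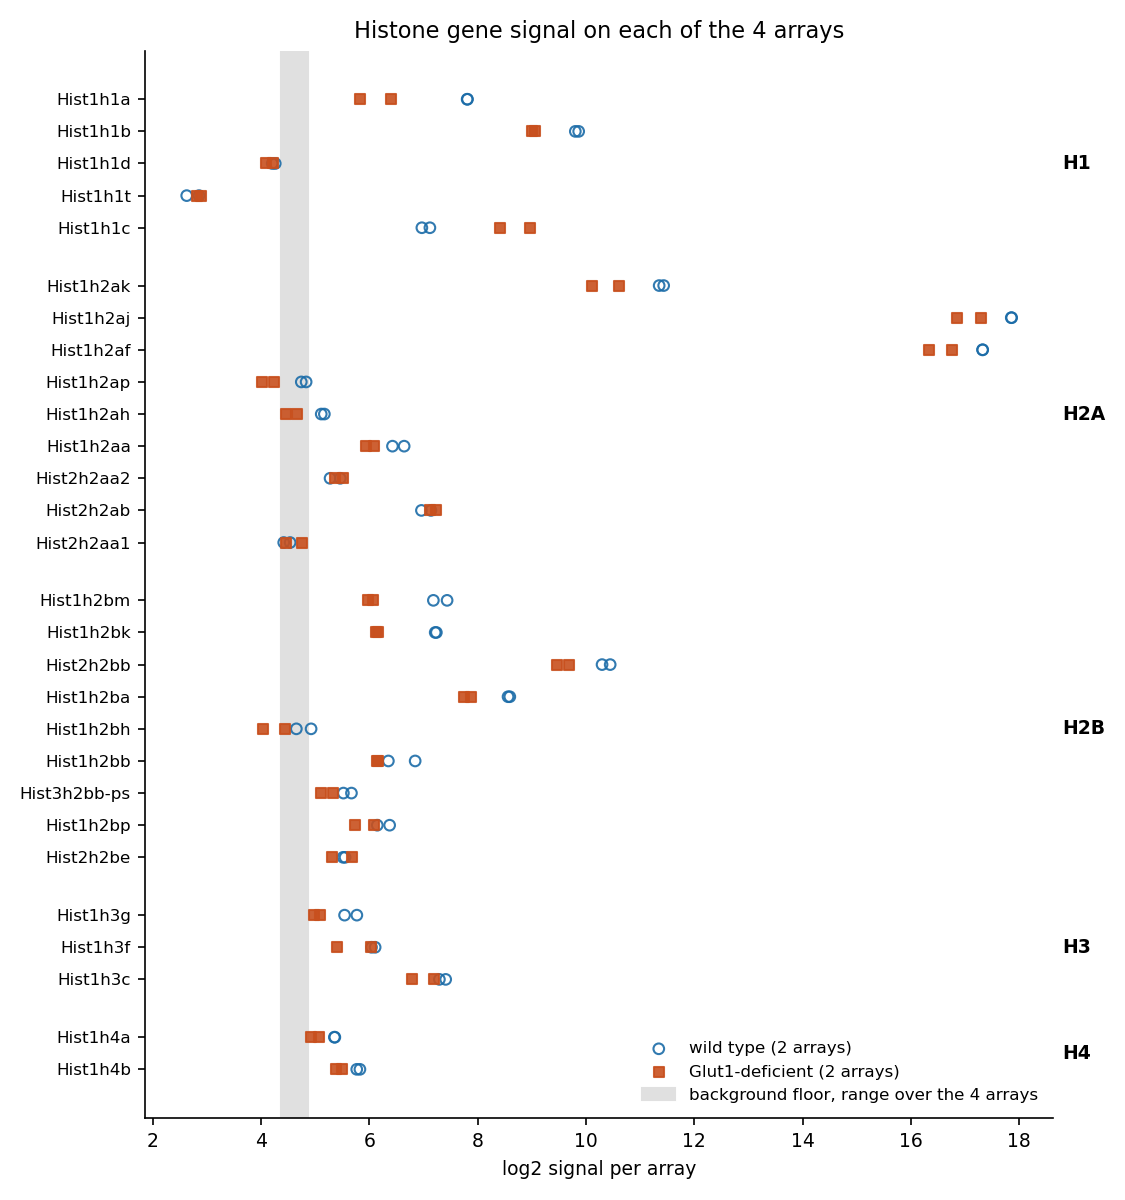
Each row is a histone gene, grouped by class and ordered within it by the difference between genotypes; open circles are the 2 wild-type arrays and filled squares the 2 Glut1-deficient arrays, on a log2 signal axis, with the range of the background floor in grey. In 21 of 28 genes both squares lie left of both circles, and in Hist1h1c both lie to the right.

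The calls rested on all 4 arrays. With 1 array left out, 2 genes fell without either wild-type replicate. Leaving out replicate 1 of the Glut1-deficient cells left 1 fall, and leaving out replicate 2 left 7. Over all rows the calls dropped as well, from 2209 (7.22% of rows) to 389 and 566 when wild-type replicates 1 and 2 were dropped in turn, and to 314 and 1214 for the Glut1-deficient ones. When every row of the table was tested, unnamed and control rows included, none of the 28 passed, while 11 had passed in the main fit, where 18 had an unadjusted p under 0.05, as did 6651 of all 30145 genes. The 2 Glut1-deficient pools were less alike than the wild-type pools for these genes: 21 of 28 had the larger SD in Glut1-deficient cells, against 57.1% of all genes. Replicate 1 was the lower of the 2 Glut1-deficient arrays in 21 of 28, against 39.5% of all genes.

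The 5 linker histone genes differed from one another in direction. Hist1h1a (current symbol H1f1), which encodes linker histone H1.1, gave 7.81 on both arrays of wild-type cells, against 5.82 and 6.39 in Glut1-deficient cells. The wild-type arrays nearly coincided and both Glut1-deficient arrays lay well below them. The gene fell by 1.70 (SE 0.20, limma adjusted p = 0.0161), a 3.25-fold drop that was the largest of the 28. Hist1h1b (H1f5), encoding H1.5, was 9.80 and 9.87 in wild type and 9.07 and 8.995 in Glut1-deficient cells. It fell by 0.80 (SE 0.10, limma adjusted p = 0.0163), with replicates close together in each genotype. Hist1h1c (H1f2) encodes H1.2. It moved the other way, from 7.12 and 6.97 to 8.96 and 8.40. Both Glut1-deficient arrays exceeded both wild-type arrays by more than 1 log2 unit, a rise of 1.64 or 3.11-fold (SE 0.20, limma adjusted p = 0.0172). Hist1h1a and Hist1h1c were each lost without either wild-type replicate (adjusted p from 0.0529 to 0.0611) and when every row was tested, with ranges over 14 alternatives from 0.00746 to 0.0900 and from 0.00555 to 0.0942. Hist1h1b was lost whichever array was left out. No alternative changed the direction of these 3 genes. Hist1h1d (H1f3) and the testis gene Hist1h1t (H1f6) lay at or below the floor on all 4 arrays, at 4.09 to 4.26 and 2.63 to 2.89, so the class median of -0.08 became -0.80 when they were left out.

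The promoters of the gene that fell most and of the gene that rose are shown because they lie in the same cluster on chromosome 13 and moved in opposite directions. They are the 150 bases before each annotated start in RefSeq (GRCm38.p6), 5′ to 3′, at chr13:23763518-23763667 (plus strand) for Hist1h1a and chr13:23738657-23738806 (plus strand) for Hist1h1c. Capitals mark matches, on either strand, to the CCAAT box (letters CCAAT), the TATA box (letters TATAAA), the H1 box (letters AAACACA) and the octamer of H2B promoters (letters ATTTGCAT).
Hist1h1a: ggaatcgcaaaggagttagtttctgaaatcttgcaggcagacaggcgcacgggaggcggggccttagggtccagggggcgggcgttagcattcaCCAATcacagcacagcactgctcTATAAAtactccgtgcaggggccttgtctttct
Hist1h1c: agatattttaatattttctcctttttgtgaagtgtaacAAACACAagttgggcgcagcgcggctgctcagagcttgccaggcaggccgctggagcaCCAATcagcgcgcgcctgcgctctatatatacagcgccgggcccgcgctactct
A CCAAT match began 56 bases before the start of Hist1h1a and 54 before that of Hist1h1c. A TATAAA match stood 33 bases before the start of Hist1h1a. In Hist1h1c an H1 box, 112 bases before the start, was the only other match in this stretch. Variants of the TATA box, such as the letters tatatata in Hist1h1c, were not searched for. A match is only a description of the letters.

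Promoter windows of 250 bases before the start were found in the RefSeq table for 24 of the 28 genes. CCAAT occurred in 23 of the 24, and in 33.8% of all 32851 windows in the table. It occurred at least 2 times in 7 of 8 H2A, 7 of 7 H2B and 2 of 2 H3 windows, in 1 of 5 H1 windows and in neither H4 window, against 10.1% of all windows. The octamer ATTTGCAT, known as a site for Oct1, was present in 5 of 7 H2B and 2 of 8 H2A windows and in none of the others, and in 1.60% of all windows. Both H2A matches, in Hist1h2ah and Hist1h2aa, are the same letters as those counted for their divergent H2B neighbours Hist1h2bk and Hist1h2ba, so there were 5 separate octamers. The H1 box AAACACA was present in 4 of 5 H1 windows, in 1 of 8 H2A and 2 of 7 H2B windows and in 6.25% of all. The H2A match, in Hist1h2aa, is again the same letters as that of Hist1h2ba. TATAAA was present in 9 of 24 windows and 12.4% of all. A TATAAA match and the CCAAT matches of Hist1h2aa and Hist1h2ba are shared too, as are the CCAAT matches of Hist1h2ah and Hist1h2bk. No matches of different motifs overlapped in these windows. By response, CCAAT was in all 10 windows of genes that fell, in that of Hist1h1c and in 12 of 13 windows of genes that did not pass. In the same order, TATAAA was in 4, 0 and 5 windows, the H1 box in 3, 1 and 3, and the octamer in 5, 0 and 2. Whether motifs differ with response was not tested, and divergent neighbours share part of their windows.

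The H2B genes had lower signal in the main. There were 4 falls among 9 genes and no rise, all 9 differences were below 0, and the groups did not overlap in 8. Over all rows 3.11% fell, and in 25.8% both Glut1-deficient arrays were the lower ones. A difference below 0 was found in 52.5% of all genes. The median was -0.55 and the range -1.28 to -0.03. Hist1h2bm (H2bc14) was 7.18 and 7.44 in wild type and 5.98 and 6.07 in Glut1-deficient cells, a fall by 1.28 or 2.43-fold (SE 0.12, limma adjusted p = 0.0107). Hist1h2bk (H2bc12) was 7.22 and 7.24 against 6.12 and 6.16. The replicates of Hist1h2bk nearly coincided in both genotypes, and it fell by 1.09 or 2.13-fold (SE 0.09), with the smallest adjusted p of the 28 genes (limma, 0.00777). Both genes were lost without Glut1-deficient replicate 1 (adjusted p = 0.0671 and 0.0526) and when every row was tested (0.0753 and 0.0654), in ranges over 14 alternatives from 0.00704 to 0.0753 and from 0.00537 to 0.0654. Hist2h2bb (H2bc18), of the Hist2 cluster, was 10.30 and 10.45 against 9.46 and 9.68 and fell by 0.80 (SE 0.12, limma adjusted p = 0.0275). Hist1h2ba (H2bc1), the H2B gene best known from testis, was 8.56 and 8.59 against 7.74 and 7.87 and fell by 0.77 (SE 0.10, limma adjusted p = 0.0193). Hist2h2bb was lost whichever array was left out, and Hist1h2ba without either wild-type replicate or Glut1-deficient replicate 1.

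The other H2B genes had smaller differences. Hist1h2bb was 6.35 and 6.85 against 6.15 and 6.14 (-0.45, limma adjusted p = 0.229), so the wild-type arrays were as far apart as the genotypes. Hist1h2bp and Hist3h2bb-ps stood at -0.35 and -0.38. Hist2h2be (H2bc21) was 5.55 and 5.52 against 5.32 and 5.69. Its difference was -0.03 (SE 0.15) and its sign turned to 0.02 after a further quantile normalization and to 0.15 without Glut1-deficient replicate 1. Hist1h2bh lay at or below the floor on both Glut1-deficient arrays, so its wild-type signal was at least 1.03-fold higher (limma adjusted p = 0.151 for the measured difference).

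The upstream stretches of the 3 H2B genes Hist1h2bk, Hist1h2bm and Hist2h2bb, which fell, carry the octamer close to the start and are shown for that reason. The first is the whole 177 bases between the starts of Hist1h2bk and of the divergent H2A gene Hist1h2ah, at chr13:22035644-22035820, and the others are 150 bases at chr13:21721894-21722043 and chr3:96269550-96269699, all on the plus strand of GRCm38.p6.
Hist1h2bk: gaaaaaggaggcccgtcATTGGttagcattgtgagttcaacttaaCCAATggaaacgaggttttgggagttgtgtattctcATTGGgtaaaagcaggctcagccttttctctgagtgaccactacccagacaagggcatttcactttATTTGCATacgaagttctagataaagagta
Hist1h2bm: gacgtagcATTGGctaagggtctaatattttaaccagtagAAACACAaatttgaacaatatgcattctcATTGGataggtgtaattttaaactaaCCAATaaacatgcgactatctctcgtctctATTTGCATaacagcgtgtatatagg
Hist2h2bb: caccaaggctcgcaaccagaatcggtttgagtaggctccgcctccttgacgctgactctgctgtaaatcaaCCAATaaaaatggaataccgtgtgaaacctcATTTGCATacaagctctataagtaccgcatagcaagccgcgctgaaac
The octamer began 30, 25 and 48 bases before the starts of Hist1h2bk, Hist1h2bm and Hist2h2bb. The CCAAT matches nearest the start were at 96, 55 and 79 bases.

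**Figure D2:**
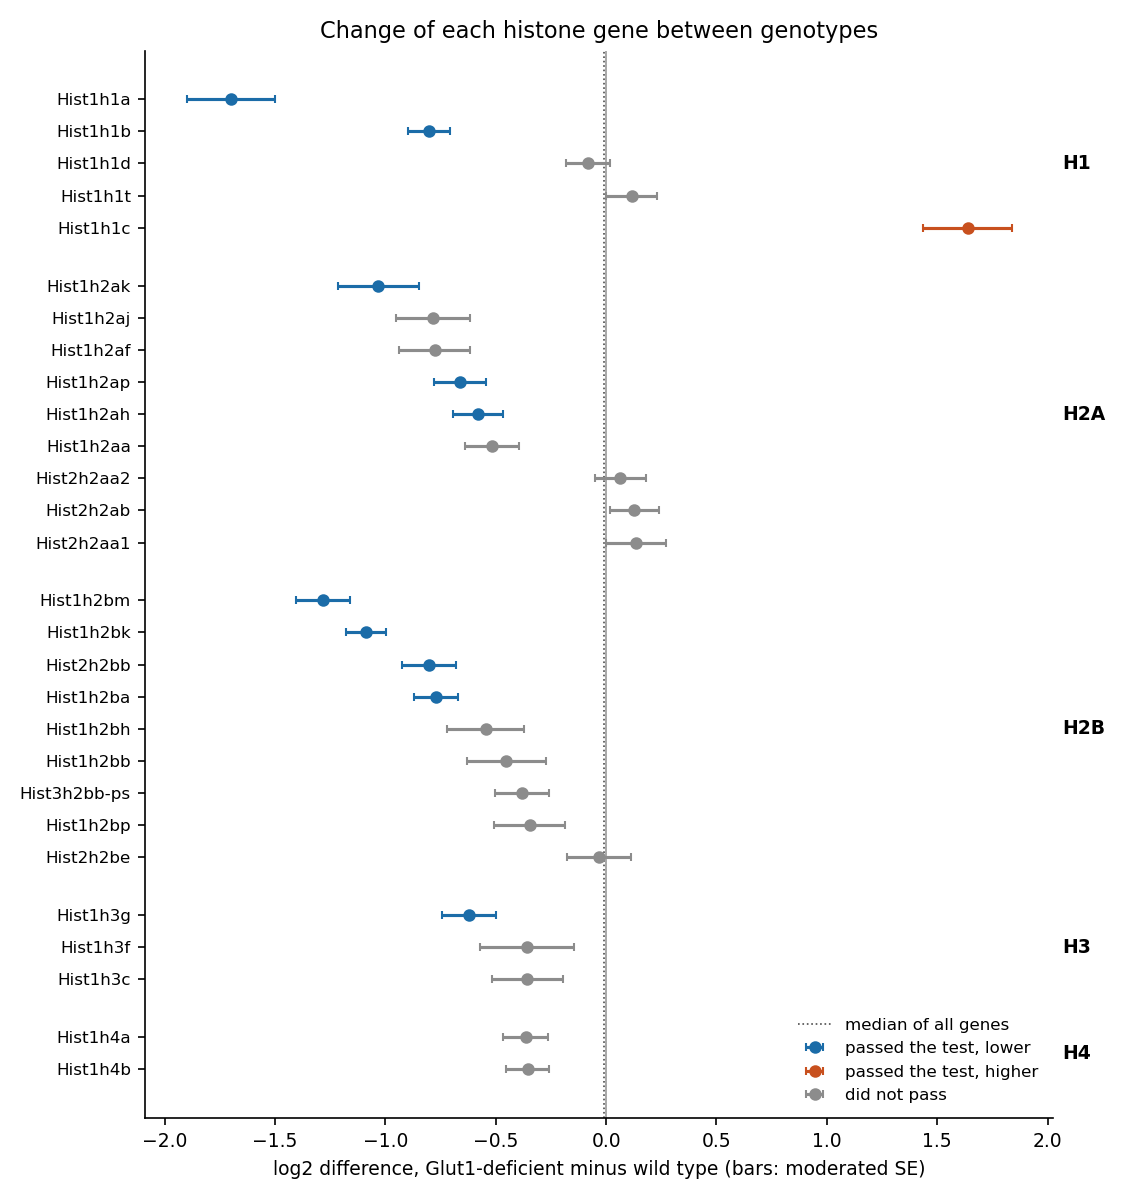
Points give the log2 difference, Glut1-deficient minus wild type, of each histone gene, with the moderated SE as bars; blue genes fell, the orange gene rose and grey genes did not pass, and the dotted line is the median of all genes (-0.01). Hist1h1a at -1.70 and Hist1h1c at 1.64 mark the ends of the range.

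The 9 H2A genes gave 3 falls and no rise, with a median of -0.58 and a range from -1.03 to 0.13. The share called lower over all rows was 3.11%. Hist1h2ak (H2ac15) was 11.43 and 11.35 in wild type and 10.11 and 10.61 in Glut1-deficient cells. Both Glut1-deficient arrays were lower, and they were further apart than the wild-type arrays. The gene fell by 1.03 or 2.05-fold (SE 0.18, limma adjusted p = 0.0382). Hist1h2ah (H2ac12), which shares its upstream stretch with Hist1h2bk, was 5.11 and 5.17 against 4.46 and 4.66, a fall by 0.58 (SE 0.11, limma adjusted p = 0.0472). Its signal on Glut1-deficient replicate 1 lay below that array's floor, so the size of this fall rests partly on a value not above background. Hist1h2ap (H2ac24) was 4.74 and 4.83 in wild type and at or below the floor on both Glut1-deficient arrays. Its wild-type signal was at least 1.03-fold higher than that floor (limma adjusted p = 0.0377 for the measured difference). Hist1h2ah held in 4 of 14 alternatives and Hist1h2ap in 6 of 13, and neither passed in any fit with 1 array fewer (over all alternatives, adjusted p from 0.0300 to 0.194 and from 0.0239 to 0.161). Hist1h2ak was lost in 4 of 14, namely without wild-type replicate 1 or 2, without Glut1-deficient replicate 1 and with every row tested (0.0233 to 0.151 over all).

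Hist1h2af (H2ac10) gave 17.32 on both arrays of wild-type cells, against 16.33 and 16.76 in Glut1-deficient cells. Its difference of -0.78 (SE 0.16) did not pass (limma adjusted p = 0.0562), and neither did that of Hist1h2aj (H2ac14), also -0.78 (SE 0.17, limma adjusted p = 0.0604), with 17.85 and 17.86 against 16.84 and 17.30. Both passed when rows below the median signal were left out (0.0354 and 0.0379), with ranges over 14 alternatives from 0.0341 to 0.194 and from 0.0365 to 0.202. RefSeq lists Hist1h2aj as a pseudogene, and a row that names 10 other H2A copies gave 17.60 and 17.69 against 16.64 and 17.07. Whether these rows detect each other's messages was not tested. Hist1h2aa (H2ac1), a testis H2A gene 280 bases from the divergent start of Hist1h2ba, was 6.64 and 6.43 against 5.95 and 6.09 (-0.52, SE 0.12, limma adjusted p = 0.0741), without overlap.

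The 3 Hist2 H2A genes overlapped between genotypes. Hist2h2ab (H2ac21) was 7.14 and 6.96 in wild type and 7.12 and 7.23 in Glut1-deficient cells (0.13, SE 0.11). Hist2h2aa2 differed by 0.06 and Hist2h2aa1, close to the floor, by 0.13. With Hist2h2be at -0.03 and Hist2h2bb at -0.80, the 5 Hist2 genes had a median of 0.06 with 1 fall. The 22 Hist1 genes had a median of -0.56 with 9 falls and 1 rise. Over all rows 3.11% fell and 4.11% rose. The difference between clusters was not tested. The promoter of Hist2h2ab, shown as one whose gene did not pass, is at chr3:96219735-96219884 (plus strand, GRCm38.p6).
Hist2h2ab: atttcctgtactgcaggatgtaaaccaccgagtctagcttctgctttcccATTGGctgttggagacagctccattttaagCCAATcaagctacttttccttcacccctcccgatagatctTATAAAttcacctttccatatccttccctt
It held CCAAT matches at 100 and 70 bases and a TATAAA match at 30 bases before the start.

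Of 3 H3 and 2 H4 genes with a row of their own, 1 fell, an H3 gene, against 3.11% of all rows. Hist1h3g (H3c8) was 5.54 and 5.77 against 4.97 and 5.10 and fell by 0.62 (SE 0.12, limma adjusted p = 0.0478). It held in 4 of 14 alternatives and in none with 1 array fewer (adjusted p from 0.0300 to 0.197 over all 14). Hist1h3c (H3c3) and Hist1h3f (H3c7) each stood at -0.36 (SE 0.16 and 0.21). The H4 genes Hist1h4a (H4c1) and Hist1h4b (H4c2) were 5.35 and 5.36 against 4.92 and 5.07, and 5.77 and 5.83 against 5.39 and 5.49. Neither passed (-0.36 and -0.35, limma adjusted p = 0.109 and 0.106), though no Glut1-deficient array reached a wild-type one. That order held in 25.8% of all rows. A second row of Hist1h4b lay below the floor on all arrays.

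The array names 69 histone symbols, and the 28 genes described so far are those with a row of their own. The other 41, among them 11 of 13 H4, 9 of 12 H3, 10 of 19 H2A and 10 of 19 H2B symbols, occur only on 37 rows that name several symbols at once, and 10 of the 28 genes are also named there. H4 is the extreme case: 10 rows each name the same 13 genes. Probe sequences were not analysed here, so how much signal each copy gives to such a row is not known, and a row of 1 gene may also detect its near-identical copies.

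Most shared rows also had lower signal. The difference was below 0 in 35 of 37, and in 31 no Glut1-deficient array reached a wild-type one, against 25.7% of all rows with several symbols. In a fit over rows with 1 or several symbols, added after seeing the data, 17 of the 37 fell and none rose. In that fit 7.10% of all rows passed, and 2.66% of the 2146 rows with several symbols fell. The 10 H4 rows ran from -0.73 to -0.27 with a median of -0.52, and 3 fell. One of them, naming all 13 H4 genes, was 15.02 and 14.92 in wild type and 14.13 and 14.35 in Glut1-deficient cells (-0.73, limma adjusted p = 0.0308). The 6 H3 rows had a median of -0.79 and 4 fell. All 3 rows naming Hist1h3a, Hist1h3g, Hist1h3h and Hist1h3i fell, by 0.72 to 0.98. Of the 9 H2B rows 6 fell, and the 4 rows naming Hist1h2bf, Hist1h2bj, Hist1h2bl and Hist1h2bn fell by 0.86 to 1.18, the largest of them from 15.17 and 15.24 to 13.92 and 14.13 (limma adjusted p = 0.0108).

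Rows with the same list of symbols did not always move alike. The 2 rows naming Hist1h2bc, Hist1h2be and Hist1h2bg were 8.03 and 8.06 against 6.86 and 7.26 on one, a fall by 0.99 (limma adjusted p = 0.0278), and 13.68 and 13.40 against 13.97 and 13.62 on the other, a difference of 0.25 that did not pass (0.478). Neither row can be given to 1 of the 3 genes. The 9 H2A rows had a median of -0.74, with 3 falls. Their 2 rows for Hist2h2aa1 and Hist2h2aa2, one of which also names Hist1h2al, were at -0.12 and -0.15 with overlapping arrays.

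**Figure D3:**
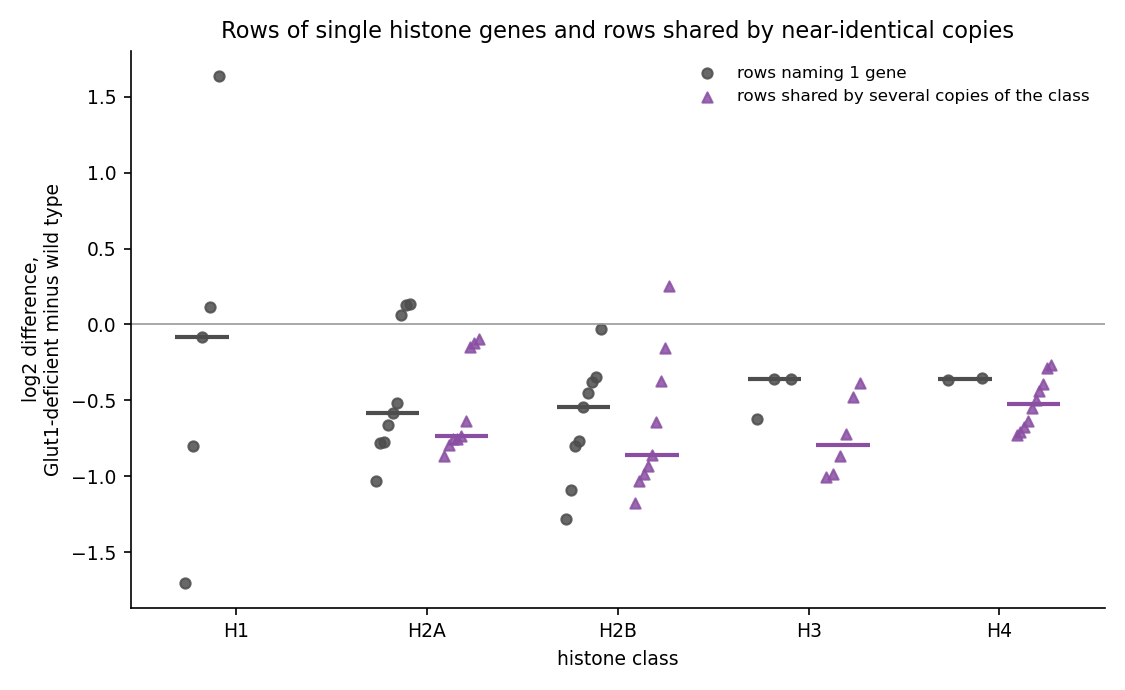
Log2 differences, Glut1-deficient minus wild type, of rows naming 1 histone gene (grey circles) and of the 34 rows naming several copies of 1 class (purple triangles), by histone class, with horizontal bars at the medians. The medians of the shared rows are -0.74 for H2A, -0.86 for H2B, -0.79 for H3 and -0.52 for H4; H1 has no such row.

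Among 16 measured genes of histone message synthesis and processing there were 2 falls and no rise, and 14 did not pass. The median was -0.28. Of all rows 3.11% were called lower. Among genes above the floor on both arrays of a genotype, as 15 of the 16 were, the share was 6.13%. Srrt, also called Ars2, acts with the cap-binding complex and fell by 1.13 (SE 0.12, limma adjusted p = 0.0122). Ncbp2, the small cap-binding subunit, fell by 0.50 (SE 0.09, limma adjusted p = 0.0433). Slbp, the stem-loop binding protein, was 6.85 and 6.91 against 6.26 and 6.47 (-0.52, SE 0.11, limma adjusted p = 0.0615) and did not pass. Upf1, which acts in histone message decay, stood at -0.57 (limma adjusted p = 0.0729).

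Among 18 measured histone chaperones and acetylases there were 4 falls and no rise, and 14 did not pass, with a median of -0.23. For this list and the variants below, the shares called lower were 3.11% of all rows and 6.13% of genes above the floor. The chaperone list shares a gene with the S phase list. Nasp, a chaperone of H1 and of H3 with H4, fell by 1.10 (SE 0.17) and Asf1b, an H3 and H4 chaperone, by 1.09 (SE 0.17). Chaf1a, the large subunit of the assembly factor CAF-1, fell by 0.55 and Anp32e, a chaperone of H2A.Z, by 0.53 (limma adjusted p from 0.0262 to 0.0381 for the 4 genes). Of 8 measured histone genes that are not replication-dependent or are variants, only Cenpa, the centromeric H3, passed, with a fall by 0.95 (SE 0.13, limma adjusted p = 0.0206). H2afx was 13.01 and 12.98 against 12.60 and 12.55 (-0.42, limma adjusted p = 0.0651).

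DNA replication genes showed a median close to that of the histone genes. In the S phase list 13 of 32 genes were called lower and none higher, with a median of -0.53. Of all rows 3.11% were called lower, and of genes above the floor on both arrays of a genotype 6.13%. Rrm2 and Rrm1, subunits of ribonucleotide reductase, fell by 1.48 and 1.07, the licensing factor gene Cdc6 by 1.39 and the cyclin gene Ccne2 by 1.09 (limma adjusted p from 0.0119 to 0.0182). In the G2 and M phase list 18 of 23 fell and none rose, with a median of -1.34. Without Glut1-deficient replicate 1, no S phase and 3 G2 and M phase genes fell, and 1 histone gene did. These lists were not independent of earlier results on these arrays, and their part in the histone values was not tested.

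**Figure D4:**
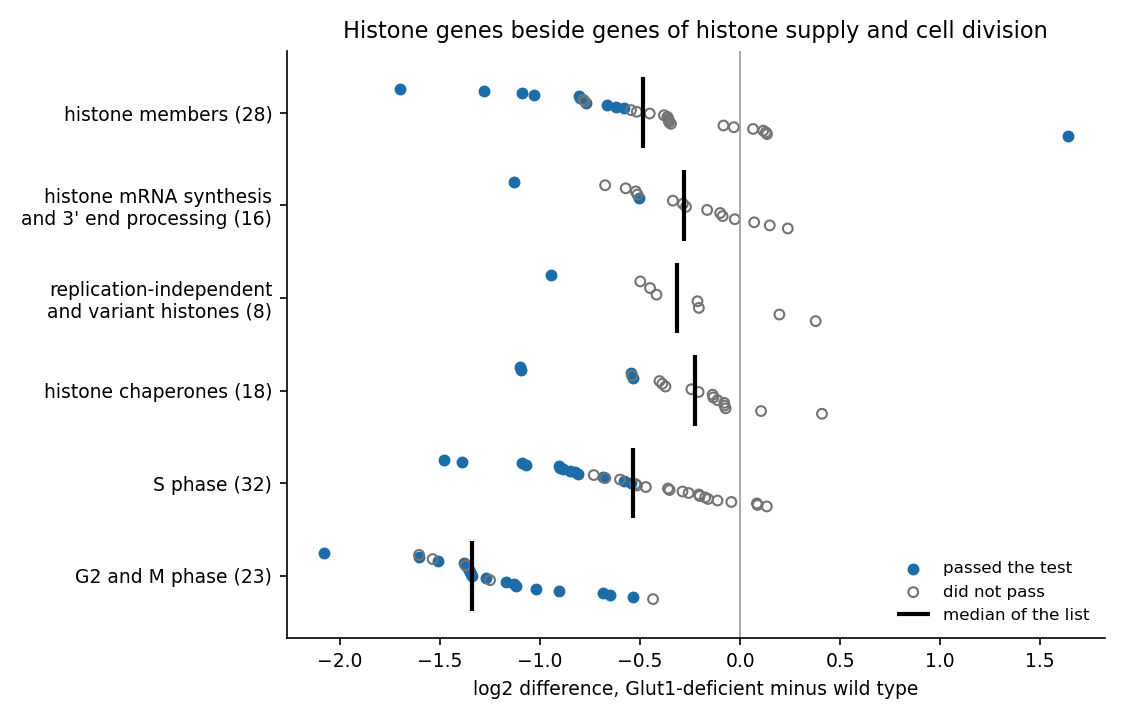
Log2 differences, Glut1-deficient minus wild type, of the 28 histone genes and of 5 gene lists, with the number measured in brackets; filled points passed the test, open points did not, and vertical bars are medians. The medians run from -0.23 for chaperones to -1.34 for G2 and M phase, with -0.48 for the histone genes and -0.53 for S phase.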

How the data were processed

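The authors deposited 1 log2 signal for each row and array. The submitters' processing notes name RMA and Affymetrix Expression Console, and the labels call the values SST-RMA. Software versions and the annotation release are not stated in the labels. RMA makes array distributions alike, so it can remove a change common to most genes, and SST-RMA transforms the signal, so folds may differ from plain RMA.

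The table held 72688 rows, 6732 of them controls. A platform table of symbols named 1 gene for 30604 rows, several for 2146 and none for 33206 non-control rows. Rows with 1 symbol were compared with limma 3.58.1 (lmFit, eBayes) in R 4.3.3, two-sided and without a block, after a test on simulated data. All 28 histone genes matched RefSeq (GRCm38.p6), used for current symbols and promoters. Genes printed were those passing the test, in each class the 3 brightest and the 2 lowest and 2 highest differences, up to 4 per pathway list by p, up to 3 per marker list by signal, and Slc2a1. Other histone genes are printed because all were described. Further markers are printed where they passed the test or lay at or below the floor. The genes and lists were chosen with earlier results of these data known.

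Same-numbered arrays share no animal per the labels, so the main fit did not pair them. Their deviations correlated at -0.23. With only 2 arrays per genotype, that value cannot show whether arrays of different genotype share a batch.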

Additional observations from a re-analysis of the deposited data

How the results depend on the processing

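No tested alternative turned a called histone gene, and none gave more than 1 rise among the 28. Falls among histone genes were 8 after quantile normalization, after median centring and after trended robust moderation. Calls in either direction over all rows were 2177, 2103 and 1929 in these fits, beside 2209 in the main fit. Falls among histone genes were 12 among rows at or above the median signal and 13 among rows above the floor. Calls in either direction over the rows tested rose there as well, to 3043 and 3135. With every row tested, 0 histone genes fell and 0 rose, 60 rows with 1 symbol passed, Slc2a1 stood at -1.28 with an adjusted p of 0.0648, and 0 genes of each of the 5 pathway lists fell. That alternative differs in the number of rows tested and in the variance prior.

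With 1 array left out, falls among histone genes ranged from 1 to 7 and rises from 0 to 1, calls over all rows from 314 to 1214, and falls from 0 to 8 in S phase, 3 to 15 in G2 and M phase, and 0 to 1 each in message processing, variants and chaperones. The median of the 28 genes ran from -0.58 to -0.44. The log2 difference of Slc2a1 ran from -1.35 to -1.21. Without Glut1-deficient replicate 1 it was -1.32 and did not pass. These fits assume that the lone array varies like the others.

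The H1 median was -0.80 among rows at or above the median signal, among rows above the floor, and among members above the floor, since Hist1h1d and Hist1h1t drop out. The H4 median was -0.28 when both rows of Hist1h4b were averaged and -0.47 with the shared rows. Falls in message processing were 4 in both filters on dim rows and 1 after quantile normalization, after trended robust moderation and with a replicate block; falls among variants were 4 in both filters and 2 after median centring; falls among chaperones were 2 after quantile normalization and with the block.

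With the replicate block 10 histone genes fell and 1 rose, and 1849 rows passed in all. The block lost Hist1h2ah and Hist1h3g and added Hist1h2af and Hist1h2aj, and the samples share only a number. With the numbers crossed, chosen after seeing the data, 6 histone, 1 message processing and 2 chaperone genes fell. In that fit 2039 rows passed in all. The cause of these differences was not tested. Signal over background limits Hist1h1d, Hist1h1t and Hist2h2aa1, which lay near or below the floor. The same limit holds for the called falls Hist1h2ap and Hist1h2ah and for Hist1h2bh. Each had at least 1 Glut1-deficient array at or below the floor.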
